A study of Zea mays with 36 samples.

Results

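NR1 (Zm00001eb176470) and NR2 (Zm00001eb256260) are the 2 maize nitrate reductase genes described here, chosen by these identifiers out of 43459 genes listed for leaf and for root. Both identifiers were present in both tissues. RNA-seq was performed on maize inbred B73 grown hydroponically, with 36 libraries from leaf and root, 6 time points and 3 libraries at each. All plants were B73 and had been raised on nitrate for 12 days. The 0 h plants were sampled under normal nitrogen, and plants at 0.5, 3 and 24 h had been moved to a solution without nitrate salts. Per the published methods, chlorides took the place of calcium nitrate and manganese sulfate in it. Nitrate was given back after 24 h, and the recovery plants were sampled 30 min later (24.5 h) and at a last point labelled 48 h. Labels and published methods differ on how long after resupply this last point was taken, on the nutrient solution, and on how many plants were pooled per library (5 in the labels), so 48 h is used here as a label. Leaf samples were fully developed leaves and root samples mixed seminal and crown roots. No untreated plants were sampled alongside at the later times. The 0, 24 and 48 h labels share an hour of the day, and so do 0.5 and 24.5 h. The hour differs from 0 h at 0.5, 3 and 24.5 h, and it differs between 24 and 24.5 h. It also differs between 0.5 and 3 h, between 3 and 24 h, and between 24.5 and 48 h. For all of these, a change with the medium or the time in it and a change with the hour cannot be told apart.

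Nitrate reductase is the cytosolic enzyme that reduces nitrate to nitrite, the first step of nitrate assimilation. Nitrite is moved into plastids, where nitrite reductase (NIR), fed with electrons by ferredoxin and its reductase (RFNR in root plastids), turns it into ammonium. Nitrite reductase carries a siroheme group, and UPM genes encode the methyltransferase that makes the siroheme precursor. Glutamine synthetase (GS) and glutamate synthase (GOGAT) then build ammonium into amino acids. In plants, nitrate reductase genes are known for rapid induction by nitrate and for a daily rhythm in leaves.

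Through the version 3 gene identifiers that the study lists for its promoter clones, NR1 matched the RefSeq protein-coding gene NNR1, on chromosome 4 at 58905750-58910788 of assembly Zm-B73-REFERENCE-NAM-5.0, a span of 5039 bp. NR2 matched the RefSeq protein-coding gene NAR, on chromosome 5 at 219126568-219130006, a span of 3439 bp. The study cloned a promoter fragment of each gene and tested in yeast (a yeast one-hybrid screen) which transcription factors bound it. The primers that bounded these fragments are shown because the lists of transcription factors used below come from them. They are written 5′ to 3′ in lower case, with no part in capitals, and the left primer is also the start of the listed clone sequence.
NR1 left primer: gtgcataggatcagggcatgc
NR1 right primer: ggcgtacgttctggtttctgg
NR2 left primer: ccagtgacagattgtggagtgg
NR2 right primer: tctggtcttggaagctggggag

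Levels are in TPM, a unit scaled by transcript length and by library, so that levels of different genes can be compared within a library. TPM keep no read depth, so the depth behind each value is unknown. Changes are log2 fold changes of TPM + 1 from limma, fitted to all genes of a tissue with 1 TPM or more in 3 or more libraries (23268 in leaf and 26245 in root). A gene was called where the adjusted p-value was under 0.05 and the log2 fold change was above 1 in size. In a bulk sample, fewer cells of a type and less RNA per cell cannot be told apart. How reads shared by the related genes NR1, NR2 and the third family member NR3 were divided is not given in the sources used here, so a small level of 1 gene beside a high level of another is uncertain.

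The tissue labels were checked on marker genes. The 4 leaf markers summed to 5589-10356 TPM in leaf libraries and 83.8-251 TPM in root libraries, and the 4 root nitrate uptake genes to 0.0300-4.95 TPM in leaf and 8.16-457 TPM in root. PEPC6 of the leaf list was as abundant in root (56.1-102 TPM) as in leaf (34.3-99.1 TPM), and NRT2.5 of the root list was under 3 TPM in both. In leaf, 6 of 18 libraries correlated best over all genes with a library of another time point, and 5 of these were from 24.5 or 48 h. In root, 1 of 18 libraries did so, the library labelled 48 h replicate 2, whose NRT2.1 level was 217 TPM against 0.285 and 1.52 TPM in the other 48 h libraries.

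The nitrate reductase transcripts of leaf came almost wholly from NR1, and those of root from both genes. In leaf, NR1 made up 94.0% to 99.8% of NR1 plus NR2 TPM over the 18 libraries. In root, its share ran from 23.3% to 80.5%. At 0 h, NR1 stood at 349, 371 and 402 TPM in the leaf libraries and at 19.6, 16.3 and 19.5 TPM in the root libraries. NR2 stood at 2.06, 0.944 and 1.24 TPM in leaf and at 28.6, 33.6 and 28.0 TPM in root. The ranges of the tissues were far apart for both genes, with NR1 on the leaf side and NR2 on the root side. On group means, NR1 was 20.2 times as high in leaf as in root, and NR2 was 21.2 times as high in root as in leaf. These tissue levels are set side by side from separately made tables, with no test. NR3 (Zm00001eb037860) was at most 1.55 TPM in any leaf library and 2.099 TPM in any root library.

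**Figure D1:**
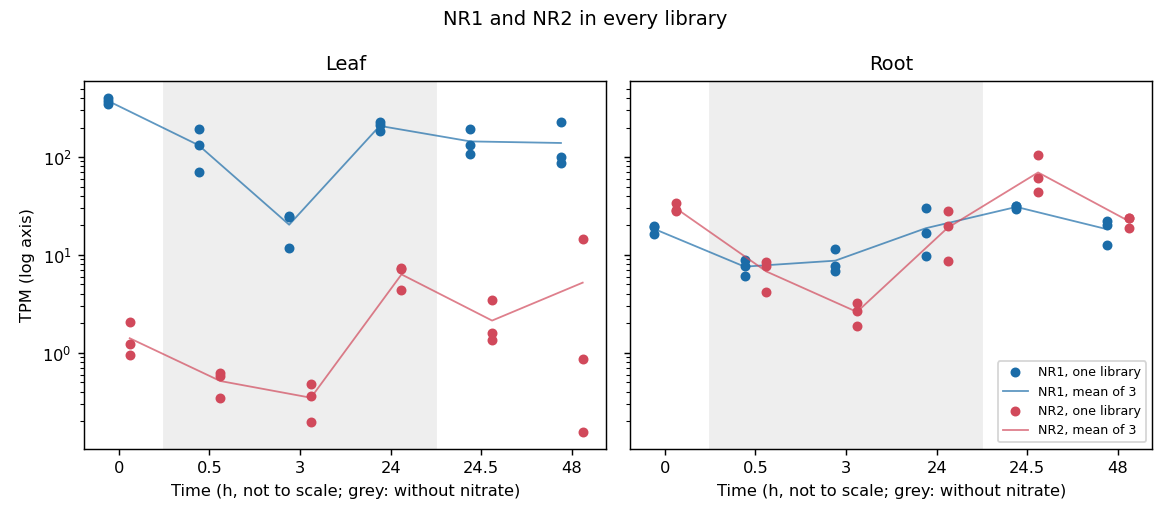
NR1 (blue) and NR2 (red) in each of the 18 leaf and 18 root libraries, as TPM on a log axis against time in h (points not spaced to scale), with lines joining the means of 3 libraries and the time without nitrate in grey. In leaf, NR1 lies above NR2 in every library and dips to 20.4 TPM at 3 h. In root, the NR2 mean lies below that of NR1 at 0.5 h (6.79 against 7.60 TPM) and 3 h, beside it at 24 h and above it at 24.5 h. At 0.5 h, NR2 lies below NR1 in replicate 1 only, and above it in replicates 2 and 3.

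In leaf, NR1 was lower at 0.5 h, lowest at 3 h and higher again at 24 h, with nitrate still absent. The 3 and 24 h plants were sampled at different hours of the day. At 0.5 h the leaf libraries held 193, 133 and 70.1 TPM of NR1, a wide spread with every library below the 0 h range. Its log2 fold change of -1.61 (SE 0.382) had a limma adjusted p of 0.0210, so 1 of the 2 genes was called lower at 0.5 h, where 0.769% of all genes tested were. The adjusted p rose to between 0.0592 and 0.0867 when any of 0 h replicates 1, 2 or 3 or 0.5 h replicates 2 or 3 was left out, with log2 fold changes of -1.22 to -1.94 over the 6 fits that left out a library. At 3 h NR1 was at 25.2, 11.7 and 24.2 TPM, 5.44% of its 0 h mean and below every 0.5 h library. Its log2 fold change was -4.20 against 0 h (95% interval -5.02 to -3.39, limma adjusted p = 1.01e-06), ranked 25 among the falls of the 23268 genes, and 5.17% of genes tested were called lower. Against 0.5 h it was -2.59 (limma adjusted p = 0.000401), where 2.78% of genes were called lower. For the median leaf gene the same contrast gave 0.19, and with median-of-ratios scaling, which brought that median to -0.01, NR1 stood at -4.44.

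At 24 h the leaf libraries held 183, 211 and 229 TPM of NR1, all above the 3 h libraries and all below the 0 h libraries. The return from 3 h was called for both genes, NR1 by 3.35 on the log2 scale (limma adjusted p = 2.15e-05) and NR2 with 2.42 (SE 0.634, adjusted p = 0.0119), where 3.21% of genes tested were called higher. Against 0 h, NR1 was at -0.85 (95% interval -1.66 to -0.04, limma adjusted p = 0.148) and not called. By then NR1 stood at 55.5% of its 0 h mean.

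NR1 in leaf did not return to its 0 h level once nitrate was back. It was at 108, 192 and 132 TPM at 24.5 h and at 100.4, 229 and 87.3 TPM at 48 h. The 24 and 24.5 h ranges overlapped, and so did those of 24 and 48 h. Resupply over 30 min gave a log2 fold change of -0.56 (95% interval -1.37 to 0.25, limma adjusted p = 0.584), and neither gene was called; 0.0258% of all leaf genes tested were called there in either direction, and 0 of the 2 genes had an unadjusted p under 0.05. Against 0 h, the NR1 level was called lower both at 24.5 h (-1.41 on the log2 scale, limma adjusted p = 0.0183, 2.15% of genes called lower) and at 48 h (-1.56, adjusted p = 0.00962, 1.98% of genes called lower). The 24.5 h call was lost without 0 h replicate 2 or 3 or 24.5 h replicate 1 (adjusted p = 0.0557, 0.0585 and 0.0838). The 48 h call held in all 6 fits without a library, at -1.99 without replicate 2, which stood apart from the other 48 h libraries. At the matched hours of 24.5 and 0.5 h, NR1 differed by 0.20 (95% interval -0.61 to 1.01). In the order of the leaf means, 0 h was highest (374 TPM), followed by 24 h (208), 24.5 h (144), 48 h (139), 0.5 h (132) and 3 h (20.4). Neighbours from 0 h down to 48 h were not called apart, 48 h was not fitted against 0.5 h, and 3 h was called below 0.5 h.

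NR2 was scarce in leaf and most variable at the end. It stood at 0.578, 0.347 and 0.628 TPM at 0.5 h and 0.363, 0.486 and 0.199 TPM at 3 h, below the 0 h range in each library. Neither fall was called (log2 fold changes -0.65 and -0.82 with an SE of 0.634, limma adjusted p = 0.629 and 0.339). At 24 h it was at 7.45, 4.42 and 7.15 TPM, above every earlier leaf library and 4.48 times its 0 h mean. That difference from 0 h was not called (log2 fold change 1.60, 95% interval 0.26 to 2.95, limma adjusted p = 0.101), and 1.42% of genes tested were called higher. After 30 min of resupply NR2 was at 1.61, 3.48 and 1.34 TPM, below all 24 h libraries, with a log2 fold change of -1.26 (95% interval -2.60 to 0.09, limma adjusted p = 0.438). At 48 h the libraries held 0.156, 14.7 and 0.858 TPM. The high library was replicate 2, which also held the most NR1 of the 3, and NR2 at 48 h against 24 h moved from -1.16 (limma adjusted p = 0.344) to -2.296 (adjusted p = 0.00717) without it, where 0.0903% of genes were called lower with all libraries. None of the neighbours in the order of NR2 leaf means, from 24 h (6.34 TPM) through 48, 24.5, 0 and 0.5 h to 3 h (0.349 TPM), was called apart.

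In root, both genes fell within 30 min of withdrawal, NR2 further than NR1. NR2 stood at 4.15, 7.65 and 8.57 TPM at 0.5 h, all far below the 0 h libraries. NR1 stood at 8.99, 6.15 and 7.68 TPM, also below every 0 h library. Both genes were called lower at 0.5 h, against 1.14% of genes tested, with log2 fold changes of -2.04 for NR2 (SE 0.356, limma adjusted p = 0.00181) and -1.19 for NR1 (SE 0.296, adjusted p = 0.0151). Among the falls of the 26245 genes they ranked 25 and 248. The NR1 call was lost without 0.5 h replicate 2 (-1.06, limma adjusted p = 0.0626). That library held the largest estimated part of leaf NR1 of any root library. From 193 genes abundant in leaf and scarce in root, leaf RNA was estimated at 0.106% to 1.98% of a root library, enough to carry 0.316% to 24.2% of its NR1, the latter in 0.5 h replicate 2. For NR2 the same estimate was at most 0.284% of the root level. Any expression of the 193 genes in root itself would raise these estimates. The estimated leaf part was subtracted from root NR1, with all libraries kept. The NR1 call at 0.5 h against 0 h held after this subtraction. NR1 was then -0.97 at 3 h against 0 h, just inside the fold limit. It was 2.08 for the difference of resupply and withdrawal described below.

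At 3 h the root genes had parted. NR2 was at 3.27, 1.89 and 2.71 TPM, below every 0.5 h library and 8.73% of its 0 h mean. NR1 was at 11.6, 7.77 and 6.86 TPM, overlapping its 0.5 h range. Both were called lower than at 0 h, where 2.6% of genes tested were, NR2 with a log2 fold change of -3.11 (95% interval -3.87 to -2.36, limma adjusted p = 6.40e-05) and NR1 with -1.02 (interval -1.65 to -0.40, adjusted p = 0.0284). NR1 sat at the fold limit. Of the 6 fits without a library, 5 lost its call (all but the fit without 3 h replicate 1), with log2 fold changes of -0.88 to -1.23. The step from 0.5 to 3 h was -1.07 for NR2 (limma adjusted p = 0.0552) and 0.16 for NR1 (adjusted p = 0.755), with neither called and 2.46% of genes called lower. NR2 was called over this step without 0.5 h replicate 1 (-1.35, limma adjusted p = 0.0320), with a pseudocount of 0.1 (-1.31, 0.0359), with a filter of 5 TPM on the mean (0.0477), with median-of-ratios scaling (-1.15, 0.0486) and with only those groups fitted (0.0443).

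After 24 h without nitrate, both root genes had returned towards their 0 h levels in 3 libraries that differed widely. NR2 was at 19.9, 28.2 and 8.61 TPM and NR1 at 16.7, 29.9 and 9.69 TPM, with replicate 2 highest and replicate 3 lowest for both. NR2 was called higher than at 3 h (by 2.33 on the log2 scale, limma adjusted p = 0.00159, 0.85% of genes called higher). NR1 was not (0.92, adjusted p = 0.0550), but was called without 24 h replicate 3 (1.29, adjusted p = 0.00897). Against 0 h, neither was called, NR2 at -0.78 (95% interval -1.53 to -0.02, limma adjusted p = 0.134) and NR1 at -0.11 (-0.74 to 0.52), and 2.58% of genes were called lower.

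At 24.5 h, 30 min after resupply, NR2 in root stood above its 0 h level. The 24.5 h libraries held 43.9, 104 and 61.1 TPM of NR2, each above every library of any other time. NR1 was at 29.4, 31.5 and 31.9 TPM, a narrow range that only 24 h replicate 2 reached. NR2 was called higher than at 24 h (log2 fold change 1.88, SE 0.356, limma adjusted p = 0.00280), and NR1 was not (0.83, SE 0.296, adjusted p = 0.0648), where 2.9% of genes tested were called higher. Without 24 h replicate 2, NR1 was called as well (1.21, limma adjusted p = 0.00896). Against 0 h, NR2 was called higher (2.31 times the 0 h mean, limma adjusted p = 0.0383, 2.99% of genes called higher) and NR1 was not (1.67 times, adjusted p = 0.0965). The NR2 call against 0 h did not hold in 5 of 6 fits without a library (all but the fit without 24.5 h replicate 1), with log2 fold changes of 0.77 to 1.38. By 48 h NR2 stood at 24.0, 23.6 and 19.0 TPM and NR1 at 20.3, 22.1 and 12.6 TPM, below all 24.5 h libraries. NR2 was then also below every 0 h library, at 73.9% of its 0 h mean. That difference was not called (-0.42, limma adjusted p = 0.457, 2.42% of genes called lower). The drop from 24.5 h was called for NR2 (-1.52, limma adjusted p = 0.0130, 2.61% of genes called lower) and not for NR1 (-0.76, adjusted p = 0.125). It was lost for NR2 without 24.5 h replicate 2 (-1.19, adjusted p = 0.0583) or 48 h replicate 3 (-1.42, adjusted p = 0.0507). The library labelled 48 h replicate 2, which stood apart over all genes, lay within the range of the other 24 and 48 h libraries for both.

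Withdrawal and resupply were compared directly over 30 min intervals that began at the same hour and shared no library. The change on resupply minus the change on withdrawal was 3.92 for NR2 in root (SE 0.503, 95% interval 2.85 to 4.99, limma adjusted p = 0.000624). For NR1 in root it was 2.01 (SE 0.418, interval 1.12 to 2.90, limma adjusted p = 0.00677). Both genes were called higher, against 3.59% of genes tested, and they ranked 5 and 121 among the rises of 26245 genes. The median root gene stood at 0.20 on this scale, and median-of-ratios scaling, which took that median to 0.02, gave 3.71 for NR2 and 1.81 for NR1. All fits without a library kept both calls, from 3.46 to 4.26 for NR2 and from 1.64 to 2.401 for NR1. At the matched hours of 24.5 and 0.5 h, root NR2 was 10.2 times and NR1 4.07 times as high with nitrate returned as with nitrate removed, with no overlap of libraries (log2 fold changes 3.14 and 1.90, limma adjusted p = 0.000463 and 0.00261, 1.28% of genes called higher). In leaf, the difference of resupply and withdrawal was 1.05 for NR1 (SE 0.541, limma adjusted p = 0.404) and -0.61 for NR2 (SE 0.896, adjusted p = 0.826). Neither was called; 0.413% of leaf genes were called in either direction, and 0 of the 2 genes had an unadjusted p under 0.05.

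**Figure D2:**
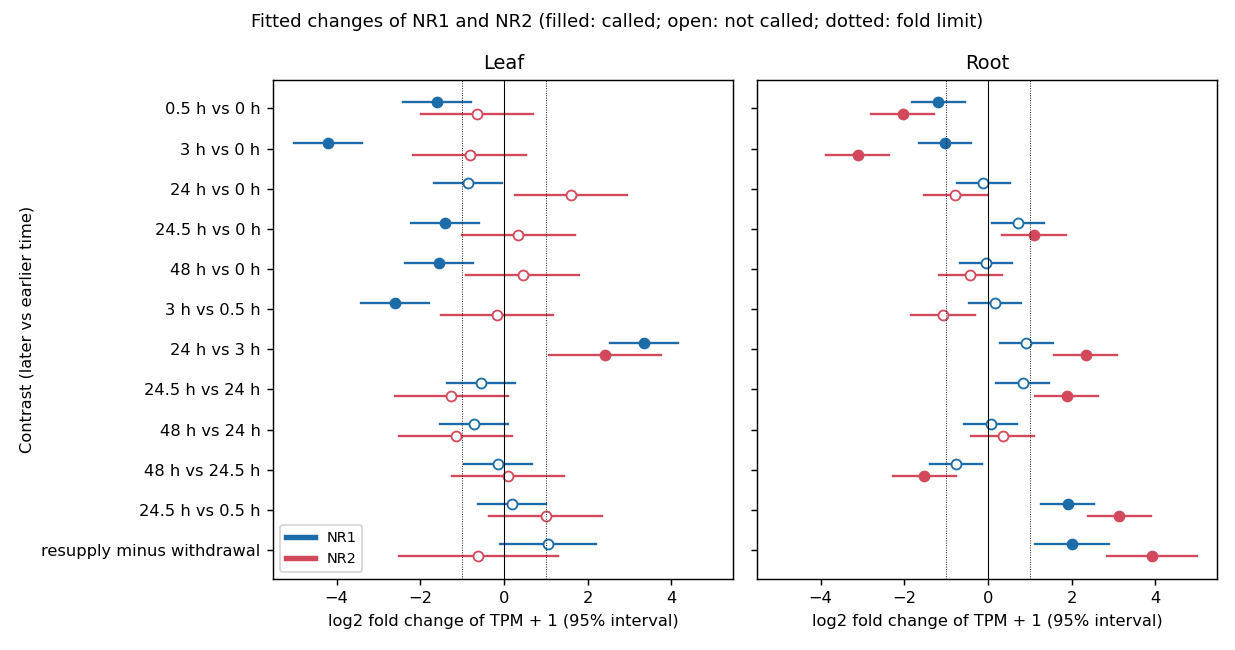
Log2 fold changes of TPM + 1 for NR1 (blue) and NR2 (red) in 12 contrasts per tissue, with 95% intervals from limma, filled points where a gene was called, and dotted lines at the fold limit of 1. In root, NR2 was called in 8 contrasts and NR1 in 4, and in leaf NR1 was called in 6 and NR2 in 1.

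In the order of root means, NR2 ran from 24.5 h (69.6 TPM) through 0 h (30.0), 48 h (22.2), 24 h (18.9) and 0.5 h (6.79) to 3 h (2.62). The called neighbours were 24.5 and 0 h. The neighbours 0, 48 and 24 h were not called apart, nor were 0.5 and 3 h, and 24 h was not fitted against 0.5 h. NR1 ran from 24.5 h (30.9 TPM) through 24 h (18.8), 0 h (18.5), 48 h (18.3) and 3 h (8.75) to 0.5 h (7.60), with no neighbours called apart and 48 h not fitted against 3 h.

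The unequal swings of the root genes changed which of them supplied most transcripts. The NR1 share of NR1 plus NR2 was 41.1%, 32.7% and 40.7% in the 0 h libraries. At 3 h it was 78.0%, 80.5% and 71.7%, every library well above the 0 h range. At 24.5 h it was 40.1%, 23.3% and 34.3%, overlapping 0 h. The mean share was 38.2% ± 4.73 for 0 h, 53.4% ± 13.1 for 0.5 h and 76.7% ± 4.54 for 3 h (SD, n = 3). It was 50.01% ± 3.87 for 24 h, 32.6% ± 8.54 for 24.5 h and 44.7% ± 4.30 for 48 h. The sum of NR1 and NR2 in root fell from 48.5 ± 1.29 TPM (0 h) to 11.4 ± 3.05 TPM (3 h) and stood at 100.5 ± 31.7 TPM (24.5 h; SD, n = 3). The log2 ratio of NR1 to NR2 (each TPM + 1) was higher by 2.09 at 3 h than at 0 h, with no overlap and an exact two-sided permutation p = 0.1, the smallest that 3 against 3 libraries can give. In all, 12 such comparisons were made, 6 per tissue, and the adjusted p-value was at least 0.133 in each exact permutation test, so none could pass 0.05. In leaf the share was never under 94.0%, the value of 48 h replicate 2, although the log2 ratio fell by 3.39 at 3 h (exact permutation p = 0.1).

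**Figure D3:**
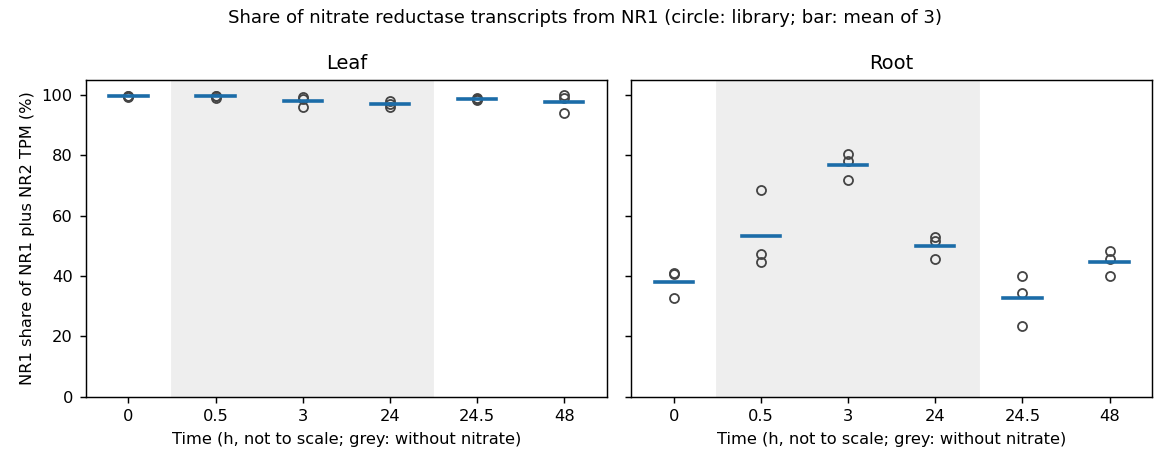
Share of NR1 in NR1 plus NR2 TPM, in percent, for each library (circles) and as the mean of 3 libraries (bars) against time in h, with the time without nitrate in grey. Leaf libraries stay between 94.0% and 99.8%, whereas the root mean rises from 38.2% at 0 h to 76.7% at 3 h and is 32.6% at 24.5 h.

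NR3 stayed scarce throughout. In leaf it was listed at 0 in all 3 h libraries and did not pass the filter on low values. In root its mean was 1.45 TPM at 0 h and 0.337 TPM at 0.5 h. The adjusted p-values were 0.0202, 0.0109, 0.0133 and 0.0260 (limma) at 0.5, 3, 24 and 24.5 h against 0 h, with log2 fold changes of -0.85, -0.93, -0.87 and -0.75, short of the fold limit of 1. The 1 TPM added before the log is large beside these levels. On TPM alone, the 0 h mean was 4.29, 4.97, 4.57 and 3.16 times the later means, with no overlap of libraries. NR3 was at most 4.04% of root nitrate reductase TPM in any library.

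The nitrate assimilation list of the study's network holds 14 genes other than NR1 and NR2, of which 12 passed the filter in each tissue. In root, 3 of the 12 were called lower at 0.5 h with NR1 and NR2, namely UPM2 (log2 fold change -2.54), NIR2 (-1.46) and UPM1 (-1.12). Of all root genes tested, 1.14% were called lower there. At 3 h 5 of the 12 were called lower, namely NIR2 (-2.44), NIR1 (-2.22), RFNR (-1.69), UPM2 (-1.49) and UPM1 (-1.03), against 2.6% of genes. On resupply 4 of the 12 were called higher than at 24 h, UPM2 (2.102), NIR1 (2.00), UPM1 (1.71) and NIR2 (1.13), against 2.9% of genes. The difference of resupply and withdrawal was called higher for 5, UPM2 (4.64), UPM1 (2.83), NIR1 (2.74), NIR2 (2.59) and GOGAT3 (1.09). All 12 were fitted above 0, and 3.59% of all root genes tested were called higher. The list's median was 1.09 on that scale against 0.20 over all root genes. These genes act in nitrite reduction and its cofactor, except GOGAT3, a glutamate synthase.

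The glutamine and glutamate synthases of the list were mostly not called with the reductases. At 24 h, when NR1 and NR2 were not called against 0 h in root, 4 of the 12 were called lower: NIR1 (log2 fold change -1.86), GS1-5 (-1.76), GOGAT2 (-1.39) and NIR2 (-1.35). Over all root genes tested, 2.58% were called lower at that time. NIR1 then stood at 14.1, 23.6 and 9.35 TPM against 52.5, 60.8 and 54.3 TPM at 0 h, with no overlap. At 48 h against 24 h, GOGAT2 (1.88), GS1-5 (1.82) and GOGAT3 (1.26) were called higher in root. NR1 and NR2 were not (0.07 and 0.36, limma adjusted p = 0.923 and 0.584), where 0.625% of genes were called higher.

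In leaf, NIR1 was the 1 gene of the 12 called lower at 0.5 h with NR1 (log2 fold change -1.04, limma adjusted p = 0.0276). Of all leaf genes tested, 0.769% were called lower there. At 3 h, 3 of the 12 were called lower, NIR1 (-2.72), UPM2 (-1.96) and UPM1 (-1.24), against 5.17% of genes. From 3 to 24 h, 4 were called higher, UPM2 (2.64), NIR1 (1.73), NIR2 (1.39) and RFNR (1.17), against 3.21% of genes. NIR1 was also the 1 gene called lower with NR1 at 24.5 h and at 48 h against 0 h (-1.60 and -1.56). The shares of leaf genes called lower were 2.15% and 1.98%. On resupply limma called 0 of the 12 in leaf, where only 0.0258% of all leaf genes tested were called in either direction. NIR1 stood at -0.61 and NR1 at -0.56, and the medians of the list and of all leaf genes were both 0.09.

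**Figure D4:**
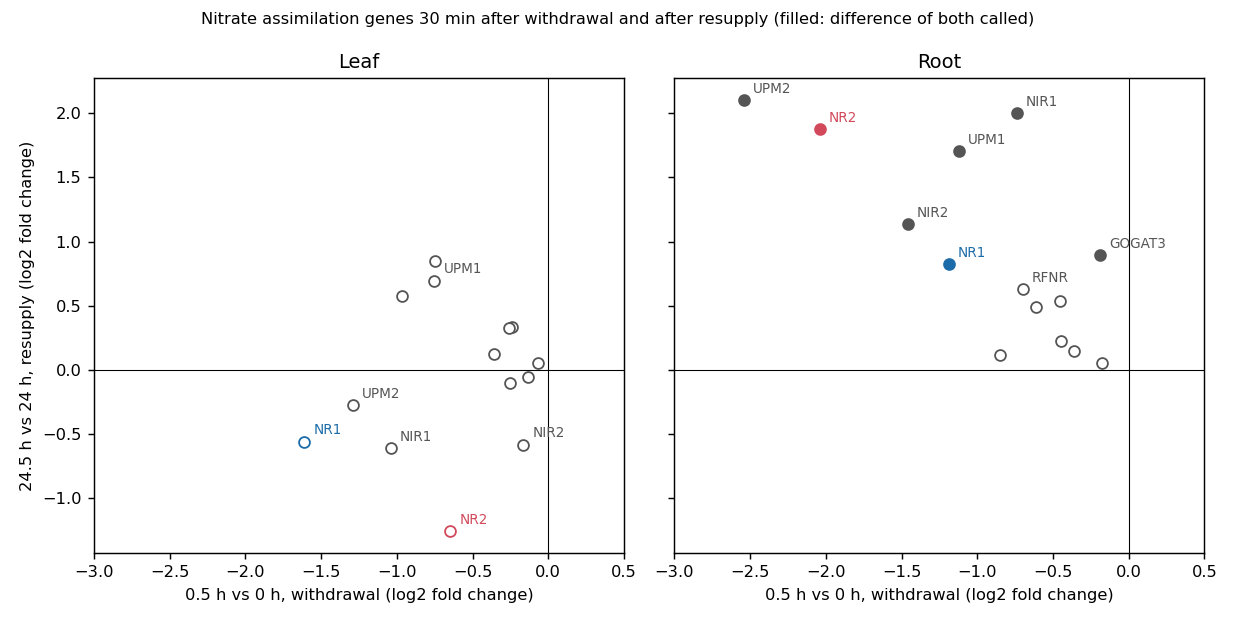
Log2 fold change 30 min after nitrate withdrawal (0.5 h against 0 h, x axis) and 30 min after resupply (24.5 h against 24 h, y axis) for the 14 tested nitrate assimilation genes of each tissue, NR1 in blue and NR2 in red, filled where the difference of both changes was called. In root, UPM2, NR2, NIR1, UPM1, NIR2, NR1 and GOGAT3 are filled and lie to the upper left, and in leaf no gene is filled and both reductases lie below 0 on both axes.

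Likeness to each gene was ranked by Pearson's r of log2(TPM + 1) over the 18 libraries of a tissue, which share time points, so these values describe the libraries and carry no test. NR1 and NR2 were close in root (r = 0.885, Spearman 0.870) and less so in leaf (r = 0.507, Spearman 0.610). Among 26244 root genes, NR2 ranked 2 for NR1, after UPM2 (r = 0.906), and NR1 ranked 5 for NR2. The other network genes most like NR1 in root were the factor gene C3H11 (0.772), UPM1 (0.722) and NAC125 (0.718). Those most like NR2 were NIR2 (0.856), UPM2 (0.855), RFNR (0.842) and HB54 (0.796). In leaf, the network gene most like NR1 was the transcription factor gene MYBR79 (0.963), followed by MTERF6 (0.926), NIR1 (0.924), HAD2 (0.899) and WRKY104 (0.894). The network genes most like NR2 in leaf were WRKY82 (0.894), RFNR (0.856), GLK38 (0.856), NLP17 (0.850) and MYB167 (0.848). Over all genes tested, the identifiers most like leaf NR1 were Zm00001eb106420 (0.986) and Zm00001eb011080 (0.981), and MYBR79 ranked 11. Those most like leaf NR2 were Zm00001eb162310 (0.961) and Zm00001eb233270 (0.921), and WRKY82 ranked 5.

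MYBR79 in leaf followed NR1 over the time points. It stood at 343, 336 and 334 TPM at 0 h and at 5.24, 5.12 and 4.12 TPM at 3 h. At 48 h it was at 101, 253 and 54.9 TPM, highest in replicate 2, as NR1 was. In root, MYBR79 was at 4.36, 3.40 and 7.64 TPM at 24.5 h against 38.6, 32.0 and 31.2 TPM at 0 h, low where NR1 and NR2 were high.

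The screen listed 20 transcription factors at the NR2 promoter and 1, HSF26, at the NR1 promoter. Of the 20, 19 passed the filter in root and 13 in leaf. In root 2 of the 19 were called higher at 0.5 h, when NR2 fell, namely EREB68 (log2 fold change 2.302) and MYB76 (1.64), where 1.77% of all root genes tested were called higher. EREB68, of the ethylene response factor family, stood at 7.43, 9.05 and 6.07 TPM at 0.5 h and 2.84, 0.185 and 0.0964 TPM at 0 h. It was at 7.71, 4.94 and 8.27 TPM again at 24.5 h, with every 24 h library at or under 0.130 TPM, a rise by 2.89 on the log2 scale (limma adjusted p = 0.000203). EREB68 thus rose in both 30 min intervals, while NR2 fell in the first and rose in the other. The other factor called higher at 24.5 h against 24 h was prh4/Orphan11 (1.11), so 2 of the 19 were, against 2.9% of genes. At 24.5 h against 0 h, EREB68 (2.196), Orphan207 (2.00), prh4/Orphan11 (1.08) and MYB76 (1.02) were called higher and C3H9 (-1.28) lower, against 2.99% of genes called higher and 2.21% lower. At 48 h against 0 h, Orphan207 (1.45) was called higher and C3H9 (-1.67) lower, against 1.04% and 2.42% of genes. At 3 and 24 h against 0 h limma called none of the 19.

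C3H11, also listed at the NR2 promoter, moved by less than the fold limit. In root it was at 15.6, 20.6 and 16.6 TPM at 24 h and 25.8, 23.9 and 24.2 TPM at 24.5 h, with no overlap, a difference of 0.47 on the log2 scale (limma adjusted p = 0.00644). In leaf it was at 47.8, 45.4 and 45.04 TPM at 0 h and 21.8, 21.5 and 25.6 TPM at 3 h, which gave -0.98 on the log2 scale (adjusted p = 6.64e-06). EREB68 was the 1 factor of the NR2 list called against 0 h in leaf, at 0.5 h (2.16, limma adjusted p = 0.0291), where 1.79% of leaf genes were called higher. HSF26 was called in no contrast of either tissue, and lay between -0.43 and 0.62 in leaf and between -0.42 and 0.44 in root.

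NLP proteins are transcription factors that activate nitrate response genes, as known from Arabidopsis. Of the 5 NLP genes in the network, none was called against 0 h at any time in either tissue. In either direction, 2.56% to 13.7% of leaf genes and 2.91% to 5.19% of root genes were called there, so 0 of 5 is near those shares. NLP13 in leaf at 3 h (0.96, limma adjusted p = 0.0187) fell short of the fold limit only. So did NLP4 in root at 3, 24 and 24.5 h (-0.56, -0.70 and -0.55, limma adjusted p = 0.0428, 0.0126 and 0.0384). In root, 3 of them were called higher at 3 h than at 0.5 h, NLP13 (1.66), NLP17 (1.58) and NLP7 (1.00), over the interval in which NR2 stood at -1.07 and 0.667% of root genes were called higher. At 0.5 h against 0 h, when NR1 and NR2 fell, NLP13, NLP17 and NLP7 had stood at -0.46, -1.09 and -0.52, not called. Of the 15 nitrogen transporter genes listed, all 15 passed the filter in root. There limma called 0 of them 30 min after withdrawal and 0 of them 30 min after resupply. In either direction, 2.91% and 3.54% of root genes were called, so 0 of 15 is near those shares. At 0.5 h against 0 h, 8 of the 15 were fitted above 0 and 7 below. Not called, NRT2.2 stood at 1.85-8.74 TPM at 0.5 h against 0.504-0.756 TPM at 0 h, with no overlap. The ranges of NRT2.1 overlapped (1.68-7.26 against 0.733-1.77 TPM). The 1 TPM added before the log is large beside such levels. Against 0 h, 3 of the 15 were called higher and 2 lower at 24 h (1.19% and 2.58% of genes). At 24.5 h, 4 were called higher and 1 lower (2.99% and 2.21% of genes). The nitrate transporter genes NRT2.1 and NRT2.2 were among those higher at both times, and the ammonium transporter gene AMT1.3 was lower at both.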

How the data were processed

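The deposited files gave TPM per gene for 18 leaf and 18 root libraries in separate tables. Per the study's methods, the authors aligned reads to the B73 version 5 genome with STAR and computed TPM with StringTie v2.1.4; the submitters' processing notes also name Trimmomatic and DESeq2. Labels and methods name different library kits and sequencers, and depth is unknown from TPM. All 36 columns were used. The genes and lists were chosen with earlier results of these data known. Transcription factor, assimilation and transporter lists are those of the study's network.

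Here, log2(TPM + 1) of the deposited values was fitted per tissue with limma 3.58.1 in R 4.3.3 (trend, two-sided, Benjamini-Hochberg over all genes tested, 1 coefficient per time point). On simulated data the fit gave the right sign for every planted change and called most of the larger ones, but under a majority of those set at the fold limit. Changes were planted at 3 h only, in genes well above the filter, so low levels such as leaf NR2 and NR3 were not covered. Where nothing states separate cultures, p-values measure the spread between these libraries only. Ratios were compared by exact permutation (scipy 1.17.1). Named genes were NR1, NR2, NR3, assimilation and promoter-list genes that were called, and the 5 network genes most like each reductase. MYBR79 values, C3H11 values, the 48 h NRT2.1 values and the 0.5 h NRT2.1 and NRT2.2 values were chosen after being seen. Coordinates came from RefSeq, with 10 of 16 assimilation genes matched. Alternatives covered pseudocounts of 0.1 and 5, filters, scaling, a replicate block, fewer groups, adjusted p alone, subtraction of leaf RNA, and leaving out each library.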

Additional observations from a re-analysis of the deposited data

Results flagged for a closer look

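NR1 at 24.5 h against 0 h and NR2 at 24.5 h against 24 h moved in opposite directions in the tissues, with every library of the later time outside the range of the earlier one. NR1 was lower in leaf (log2 fold change -1.41) and higher in root (0.72, not called) at 24.5 h than at 0 h. NR2 after 30 min of resupply was lower in leaf (-1.26, not called) and higher in root (1.88). The differences between tissues were not tested, since the tables were made separately.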

How the results depend on the processing

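No called change of NR1 or NR2 changed sign under any alternative, but values that were not called did, 12 for NR1 and 6 for NR2. For NR1 these were in leaf 48 h against 24.5 h (-0.58 to 0.11 when a library was left out) and 24.5 h against 0.5 h (-0.19 to 0.53), and in root 24 h against 0 h (-0.50 to 0.27), 48 h against 0 h (-0.19 to 0.19), 3 h against 0.5 h (-0.0377 to 0.30) and 48 h against 24 h (-0.31 to 0.45, and -0.00620 with quantile normalization). For NR2 they were in leaf 48 h against 0 h (-0.69 to 1.19) and against 24.5 h (-1.04 to 0.84, and -0.43 with a pseudocount of 0.1), and in root 48 h against 24 h (-0.10 to 0.70). NR2 in leaf at 24 h against 0 h became called when only those groups were fitted (1.60, limma adjusted p = 0.00307). NR1 in root lost its call with a pseudocount of 5 at 0.5 h (-0.90) and 3 h (-0.78) against 0 h, and at 3 h also with quantile normalization (-0.99) and with leaf RNA subtracted (-0.97), each short of the fold limit. With NR3 added to the total, the NR1 share in leaf at 0 h was 99.4%. Leaving out a library changed calls within -1.94 to -1.22 for NR1 in leaf at 0.5 h against 0 h, -1.30 to -1.06 and -1.23 to -0.88 for NR1 in root at 0.5 and 3 h against 0 h, and 0.45 to 1.21 for NR1 in root at 24.5 h against 24 h; these fits have fewer libraries. The NR2 call in root at 24.5 h against 0 h was also lost with a pseudocount of 0.1 (limma adjusted p = 0.0522), no filter (0.0622) and median-of-ratios scaling (0.0501). Over all results and alternatives, 352 values for NR1 and 334 for NR2 kept their direction and call, and 32 and 23 changed sign or call. Libraries with the same replicate number did not deviate together (mean r 0.0155 in leaf and -0.0159 in root), so the numbers were not taken as pairs. With the replicate block, NR2 in root stood at 3.92 for resupply minus withdrawal (limma adjusted p = 0.00110), and no call of NR1 or NR2 changed; the count of called leaf genes for that contrast was 53 with the block and 168 with median-of-ratios scaling, against 96. Over all leaf genes, median-of-ratios scaling called 13 in place of 6 on resupply, and quantile normalization 43 in place of 77 at 48 h against 24 h. Without depth, low levels such as leaf NR2 and NR3 have unknown precision.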

Other observations

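The spread of root libraries at 24 h was shared by several genes of nitrate assimilation. RFNR stood at 320, 558 and 177 TPM, NIR2 at 32.0, 55.2 and 20.6 TPM, UPM2 at 34.8, 67.9 and 20.4 TPM and the nitrate transporter gene NRT2.1 at 76.3, 228 and 47.3 TPM in replicates 1, 2 and 3, the order seen for NR1 and NR2. These genes were chosen after their values were seen.

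In the root library labelled 48 h replicate 2, assimilation genes other than NR1 and NR2 stood apart. NIR1 was at 10.1 TPM against 53.7 and 28.7 TPM in replicates 1 and 3, NIR2 at 26.9 against 101 and 54.6 TPM, UPM1 at 11.7 against 29.8 and 30.8 TPM, and RFNR at 194 against 578 and 517 TPM. NR1 and NR2 in that library were at 22.1 and 23.6 TPM, beside 20.3 and 24.0 TPM in replicate 1.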
